A study of Mus musculus with 4 samples.

Results

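The 8 genes described here, Nr4a2, Osr1, Ntng2, Synpr, Gnb4, Car3, Car12 and Slc35f3, are used as markers of layer 6 intratelencephalic neurons, of the Car3 class of cortical neurons and of claustrum-like neurons. They were taken by symbol from the first column of the count files, which list 32531 gene names, and all 8 were found. Ribosome-bound RNA captured with an antibody against EGFP (IP, 2 libraries) was set against total RNA of the homogenate (input, 2 libraries). All 4 libraries came from the cerebral cortex of adult mice of the Cbln1-EGFP-Rpl10a line NIDA030, so the transgene, a ribosomal protein fused to EGFP and named for the cerebellin gene Cbln1, was present in both groups. The libraries of each group are numbered 2 and 4. The labels give neither the cells that carry the tag, nor the number of animals, nor whether the claustrum was part of the dissection.

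Intratelencephalic neurons of layer 6 are glutamatergic neurons of the deepest main cortical layer whose axons stay within the telencephalon. The Car3 class is named for a carbonic anhydrase gene and shares much of its gene expression with the neurons of the claustrum, a thin sheet of cells beneath the insular cortex. In translating ribosome affinity purification, the RNA on tagged ribosomes is recovered together with a background of RNA from other cells. A gene more abundant in tagged than in other cells therefore tends to be higher in IP than in input. In bulk RNA, a larger share of tagged cells of a type and more RNA per cell cannot be told apart. Nor can either be told apart from a larger share of a gene's RNA on ribosomes.

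Gene counts summed to 41334423 and 47567384 in IP and to 41385301 and 39750468 in input, and 3 counts, the floor used here, were worth 0.0660 to 0.0790 CPM (counts relative to the TMM-normalised library size), a limit that covers counting error only. Cbln1 was 8.19-fold higher in IP (84.0 ± 21.7 CPM in IP, against 10.2 ± 2.39 CPM in input, mean ± SD, n = 2 each; edgeR quasi-likelihood test, adjusted p = 1.39e-10). Because the labels do not tell separate animals apart, the p-values cover only the spread between the 4 libraries, which may be technical. IP and input libraries were on different sequencing lanes, so an effect of lane cannot be told apart from that of group. Snap25, a synaptic gene of neurons in general, was abundant, with 26254 ± 1120 CPM in IP, against 10721 ± 270 CPM in input (mean ± SD, n = 2 each).

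Of the 8 markers, 4 rose in IP and none fell (edgeR quasi-likelihood test of all genes, Benjamini-Hochberg adjusted p under 0.05). In the whole data set, 23.4% of the 16600 genes tested rose and 22.4% fell. Nr4a2, Ntng2, Gnb4 and Synpr passed, whereas Car3, Car12, Osr1 and Slc35f3 did not. At an unadjusted p under 0.05, and by DESeq2 at an adjusted p under 0.05, the count of markers lower in IP was also 0. The same holds for every count of 0 genes in one direction given for the gene lists further on from all 4 libraries with TMM scaling. The share of genes that rose depended on abundance: it was 43.9% of the 3626 genes at 50 to 500 CPM, where Nr4a2, Gnb4 and Synpr lie, 28.1% of the 6808 genes at 5 to 50 CPM, where Ntng2 lies, and 3.77% of the 5919 genes below 5 CPM, where Car3 lies. The median log2 fold change of the 8 markers was 0.53, beside -0.04 over all genes tested. Both IP libraries exceeded both input libraries for 6 of the 8 markers, beside 35.3% of all genes tested. They lay below for 1 marker, Slc35f3, beside 37.8%, and overlapped for Osr1.

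**Figure D1:**
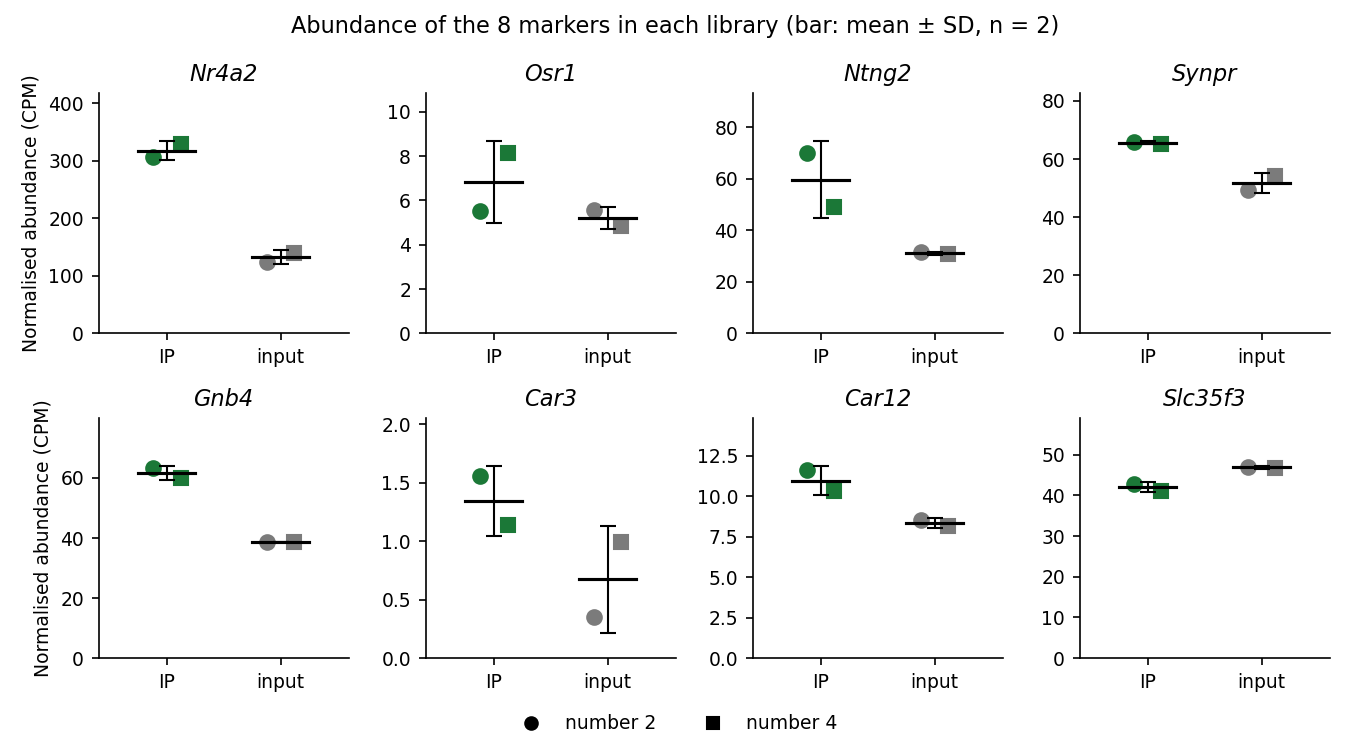
Normalised abundance of each of the 8 markers (vertical axes, CPM, starting at 0) in the IP libraries (green, left) and input libraries (grey, right). Circles stand for libraries numbered 2, squares for libraries numbered 4, and bars for mean ± SD (n = 2). Nr4a2 averaged 318 CPM in IP and 132 CPM in input with no overlap, whereas for Osr1 one IP library lies among the input libraries.

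Nr4a2, also called Nurr1, is an orphan nuclear receptor and an immediate-early gene, and marks claustrum, layer 6 and layer 6b neurons in the mouse. All 8 markers are protein-coding, and Nr4a2 lies on the minus strand of chromosome 2 (ENSMUSG00000026826.13, 57106830 to 57124003 on GRCm38). Its level was 306 and 329 CPM in IP 2 and IP 4, against 124 and 141 CPM in input 2 and input 4. Both IP libraries stood far above both input libraries. The log2 fold change was 1.27 (SE 0.10, edgeR adjusted p = 7.23e-09), and 1.98% of all genes tested had a larger one. The ratio was alike in the libraries of the same number, with a log2 ratio of 1.31 for number 2 and 1.22 for number 4. Nr4a2 made up 54.0% and 58.3% of the summed CPM of the 8 markers in IP, against 40.5% and 43.3% in input.

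The other members of the NR4A receptor family moved by a similar size. Nr4a1 averaged 294 ± 8.85 CPM in IP, against 138 ± 7.09 CPM in input (mean ± SD, n = 2 each), and rose by 1.09 on the log2 scale (SE 0.09, edgeR adjusted p = 2.66e-08). Nr4a3 rose by 1.09 (SE 0.15, edgeR adjusted p = 1.06e-05). Of 13 genes made up of Nr4a1, Nr4a3 and other immediate-early genes, 8 rose and none fell, with a median of 0.46. The count that fell was 1 without IP 4, with the replicate block and with the stricter filter on low counts, and 2 with library sizes alone. The genes that rose included Egr4 at 1.06 and the phosphatase gene Dusp1 at 0.92, whereas Egr1, the most abundant of them, stood at -0.19 (edgeR adjusted p = 0.10). The summed level of these 13 genes was 2646 and 2791 CPM in IP, against 2347 and 2454 CPM in input. Their part in the Nr4a2 difference was not tested.

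The 250 bases before the annotated start of the 3 NR4A genes are shown because the family is a textbook target of the cAMP response element binding protein CREB. A link between these letters and the ratios of IP to input was not tested. Windows of Ntng2, which also rose, and of Slc35f3, which did not pass, stand beside them. RefSeq (GRCm38.p6) windows matched 5 of the 8 markers: Nr4a2, Ntng2, Synpr, Car12 and Slc35f3. Each sequence is given 5′ to 3′ on the strand of its gene, and capitals mark the core of the cAMP response element (TGACG, or CGTCA on the other strand) and the TATA box letters (TATAAA, or TTTATA on the other strand).
Nr4a2, chr2:57124004-57124253, minus strand: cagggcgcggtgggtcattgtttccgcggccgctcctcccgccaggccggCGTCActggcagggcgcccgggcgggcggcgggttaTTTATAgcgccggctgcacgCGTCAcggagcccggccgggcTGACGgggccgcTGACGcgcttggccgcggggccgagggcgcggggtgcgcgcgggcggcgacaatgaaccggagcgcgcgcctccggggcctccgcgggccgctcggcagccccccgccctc
Nr4a1, chr15:101266596-101266845, plus strand: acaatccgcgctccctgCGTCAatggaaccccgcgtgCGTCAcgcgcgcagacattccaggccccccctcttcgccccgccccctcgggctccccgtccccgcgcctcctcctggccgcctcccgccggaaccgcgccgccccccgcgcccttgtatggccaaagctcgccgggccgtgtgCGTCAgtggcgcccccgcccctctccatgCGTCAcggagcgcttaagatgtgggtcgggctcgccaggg
Nr4a3, chr4:48045055-48045304, plus strand: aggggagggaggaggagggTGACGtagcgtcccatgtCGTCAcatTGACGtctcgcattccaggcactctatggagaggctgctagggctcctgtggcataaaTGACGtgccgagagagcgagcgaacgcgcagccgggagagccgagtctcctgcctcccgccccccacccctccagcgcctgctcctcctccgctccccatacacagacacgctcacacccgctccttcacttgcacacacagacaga
Ntng2, chr2:29248100-29248349, minus strand: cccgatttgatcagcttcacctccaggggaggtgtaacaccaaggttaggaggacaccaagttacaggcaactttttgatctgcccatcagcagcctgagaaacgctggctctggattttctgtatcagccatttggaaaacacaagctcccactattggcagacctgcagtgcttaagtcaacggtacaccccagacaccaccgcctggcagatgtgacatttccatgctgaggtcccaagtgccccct
Slc35f3, chr8:126298329-126298578, plus strand: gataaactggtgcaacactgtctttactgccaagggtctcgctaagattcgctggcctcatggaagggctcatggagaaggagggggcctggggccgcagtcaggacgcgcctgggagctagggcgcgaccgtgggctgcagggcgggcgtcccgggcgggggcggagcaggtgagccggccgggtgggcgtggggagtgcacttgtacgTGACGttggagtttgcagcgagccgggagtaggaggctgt

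The core occurred 4 times in each of the NR4A windows, 0 times in the Ntng2 window and 1 time in the Slc35f3 window shown. A further Slc35f3 window, at an upstream start, held 0 matches. The windows precede RefSeq starts, and those of Ntng2 and Nr4a1 lie within the span that GENCODE gives the gene. The Nr4a3 window and the Slc35f3 window shown reach partly into that span, and a window of Synpr at a further start lies within it. In the Nr4a2 window the matches begin 111, 123, 144 and 200 bases before the start. Among the 32851 windows of the same length in the table, 17.8% held the core at least once and 0.137% held it at least 4 times. G and C made up 80.0% of the Nr4a2 window, 74.4% of Nr4a1, 63.6% of Nr4a3, 52.4% of Ntng2 and 66.8% of Slc35f3. The core itself holds CG, and the shares over all windows were not matched for this content. The windows of Synpr and Car12 held 0 matches to the core. The whole element (TGACGTCA) and the NR4A response element (AAAGGTCA, or TGACCTTT), searched on both strands, matched none of the 5 windows shown, and occur in 1.55% and 1.34% of all windows. The TATA box letters were found in the Nr4a2 window, 164 bases before the start on the other strand, and in 12.4% of all windows. These matches describe letters, not bound sites.

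Osr1, a zinc finger transcription factor of developing kidney and limb that is also expressed by fibroblasts, was a low-abundance marker. It lies on the plus strand of chromosome 12 (ENSMUSG00000048387.8, 9570116 to 9581500). It stood at 5.53 and 8.12 CPM in IP 2 and IP 4, against 5.57 and 4.85 CPM in input 2 and input 4. The IP libraries disagreed, as IP 2 lay between the input libraries and IP 4 lay above both. The log2 fold change of 0.39 (SE 0.23) did not pass (edgeR adjusted p = 0.182). Without IP 2 it was 0.66 and passed (edgeR adjusted p = 0.0275), and without IP 4 it was 0.09. Of 10 fibroblast markers, 2 rose and 3 fell, with summed levels of 174 and 187 CPM in IP, against 159 and 171 CPM in input. Among them the proteoglycan gene Dcn averaged 83.1 ± 5.14 CPM in IP, against 10.7 ± 0.363 CPM in input (mean ± SD, n = 2 each), and the growth factor gene Igf2 fell by 1.35 on the log2 scale. Col1a1 and Lum, defining genes of fibroblasts, averaged 0.564 and 0.767 CPM in IP, against 1.87 and 0.575 CPM in input. Col1a1 fell by 1.73 (edgeR adjusted p = 0.0115) and Lum did not pass (edgeR adjusted p = 0.599). Aldh1a2, another of the 10 markers, rose by 0.75 (edgeR adjusted p = 0.000681). Their part in the Osr1 values was not tested.

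Ntng2 encodes netrin-G2, a membrane-anchored adhesion protein that binds the synaptic ligand NGL-2 and is expressed strongly in the claustrum. It lies on the minus strand of chromosome 2 (ENSMUSG00000035513.19, 29194541 to 29253005). Its level was 70.1 and 49.2 CPM in IP 2 and IP 4, against 31.6 and 30.7 CPM in input 2 and input 4. The input libraries were close to each other and the IP libraries far apart, without overlap between the groups. Ntng2 rose by 0.94 on the log2 scale (SE 0.14, edgeR adjusted p = 2.32e-05), with a log2 ratio of 1.14 between libraries numbered 2 and 0.67 between those numbered 4. Another transcript, 6530402F18Rik, shares 14.0% of the exon length of Ntng2 on the same strand, so reads there may have gone uncounted. Without IP 2 the fold change was 0.68 and without IP 4 it was 1.18, both past the threshold. No other marker shares exon bases with another annotated gene.

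No ligand or paralog gene of Ntng2 passed the test upward. Lrrc4, the gene of NGL-2, fell by 0.43 on the log2 scale (edgeR adjusted p = 0.00173), with 69.7 ± 3.93 CPM in IP, against 93.9 ± 1.48 CPM in input (mean ± SD, n = 2 each). Lrrc4c, the gene of the netrin-G1 ligand NGL-1, fell by 0.63 (edgeR adjusted p = 8.17e-05). The paralog Ntng1 stood at 0.21 (edgeR adjusted p = 0.121) and Lrrc4b at -0.20 (edgeR adjusted p = 0.129).

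Synpr encodes synaptoporin, a membrane protein of synaptic vesicles related to synaptophysin, which is abundant in hippocampal mossy fibres and in some interneurons. It lies on the plus strand of chromosome 14 (ENSMUSG00000056296.17, 13284780 to 13616340). It stood at 65.9 and 65.2 CPM in IP 2 and IP 4, against 49.5 and 54.2 CPM in input 2 and input 4. The groups did not overlap, but the gap was small. Synpr rose by 0.34 on the log2 scale (SE 0.11, edgeR adjusted p = 0.0138), and 37.7% of the genes at 50 to 500 CPM had a larger fold change. The call was lost without input 2 (0.28, edgeR adjusted p = 0.124) and with library sizes alone (0.08, edgeR adjusted p = 0.562).

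Synaptic vesicle relatives of Synpr moved further. Syp, the synaptophysin gene, rose by 0.89 (SE 0.08, edgeR adjusted p = 8.76e-08), with 1818 ± 46.4 CPM in IP, against 984 ± 20.5 CPM in input (mean ± SD, n = 2 each), and the synaptogyrin gene Syngr3 rose by 0.93. Sypl, a relative found in many tissues, fell by 0.70. Of the 6 genes of the synaptophysin and synaptogyrin families other than Synpr, 3 rose and 1 fell. Marker genes of cell types known to use Synpr moved unevenly. Of 17 interneuron markers, 16 were tested, of which 2 rose and 5 fell, with summed levels of 904 and 1136 CPM in IP, against 1012 and 1056 CPM in input. The interneuron counts were 5 higher and 3 lower without IP 2, and 1 higher without IP 4. Of 6 dentate granule neuron markers, 4 rose and none fell, with summed levels of 198 and 270 CPM in IP, against 111 and 120 CPM in input, and Pdzd2 carried most of that sum in IP. Without input 2 the count that rose was 2. The narrow dentate markers C1ql2 and Dsp averaged 1.40 and 0.868 CPM in IP, against 0.577 and 0.137 CPM in input. Dsp had 22 and 50 counts in IP 2 and IP 4, against 3 and 9 counts in input 2 and input 4, and rose by 2.65 on the log2 scale (SE 0.77, edgeR adjusted p = 0.00849), whereas C1ql2 did not pass (1.27, edgeR adjusted p = 0.0732). Their part in the Synpr difference was not tested.

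Gnb4 encodes a beta subunit of heterotrimeric G proteins, which carry signals from receptors to channels and enzymes, and is a marker of claustrum neurons in the mouse. It lies on the minus strand of chromosome 3 (ENSMUSG00000027669.14, 32580332 to 32616585). It stood at 63.2 and 60.0 CPM in IP 2 and IP 4, against 38.8 CPM in each input library. The spread within each group was small beside the gap between them. Gnb4 rose by 0.67 on the log2 scale (SE 0.11, edgeR adjusted p = 6.04e-05), a 1.59-fold difference, and 17.3% of the genes at 50 to 500 CPM had a larger one. Leaving out any 1 library gave values from 0.65 to 0.71.

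Other G protein subunit genes moved in both directions. The beta subunit genes Gnb5 and Gnb2 rose by 0.86 and 0.82 on the log2 scale, and Gnb1, the most abundant, stood at 0.19 (edgeR adjusted p = 0.0668). The gamma subunit gene Gng7 fell by 1.14, and Gng2, itself used as a claustrum marker, fell by 0.34 (SE 0.09, edgeR adjusted p = 0.00431), with 384 ± 25.1 CPM in IP, against 486 ± 9.99 CPM in input (mean ± SD, n = 2 each). Of the 8 other beta and gamma genes tested, 2 rose and 3 fell.

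Car3, the cytosolic carbonic anhydrase that gives the Car3 class its name and is otherwise abundant in skeletal muscle and fat, was the least abundant marker in every library. It lies on the plus strand of chromosome 3 (ENSMUSG00000027559.5, 14863512 to 14872523). It had 59 and 49 counts in IP 2 and IP 4, against 16 and 43 counts in input 2 and input 4, or 1.55 and 1.13 CPM in IP, against 0.352 and 0.994 CPM in input. The input libraries differed more from each other than the closest IP and input libraries did. The log2 fold change of 0.996 had a standard error of 0.57 and did not pass (edgeR adjusted p = 0.162). It was 0.44 without input 2 and 1.93 without input 4, so the single input libraries set its size. At this depth and spread, the missing call does not show that Car3 was alike in IP and input. Of 9 muscle and fat markers, 6 were tested and none rose or fell, and their summed level was 8.28 to 9.82 CPM in IP and 9.82 to 11.1 CPM in input. Their part in the Car3 counts was not tested.

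Car12, a membrane-bound carbonic anhydrase with its active site outside the cell, lies on the plus strand of chromosome 9 (ENSMUSG00000032373.15, 66713686 to 66766845). It stood at 11.6 and 10.3 CPM in IP 2 and IP 4, against 8.54 and 8.13 CPM in input 2 and input 4. Both IP libraries exceeded both input libraries. The log2 fold change of 0.39 (SE 0.18) did not pass (edgeR adjusted p = 0.0810). Across the other carbonic anhydrase genes, 10 of 14 could be tested, of which 1 rose and 6 fell. The count that fell was 3 without IP 2 and 4 without input 4, and with library sizes alone none rose. Car2, a cytosolic enzyme abundant in oligodendrocytes, rose by 0.43 (256 ± 29.3 CPM in IP, against 191 ± 1.90 CPM in input, mean ± SD, n = 2 each). Car8 and Car10, related proteins without catalytic activity, fell by 0.68 and 0.42, and Car4, a membrane-anchored enzyme, fell by 0.56.

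Slc35f3 encodes a solute carrier, described in human as a thiamine transporter, and lies on the plus strand of chromosome 8 (ENSMUSG00000057060.7, 126298558 to 126395482). It was the only one of the 8 markers with a negative fold change, at 42.9 and 41.2 CPM in IP 2 and IP 4, against 47.1 and 46.7 CPM in input 2 and input 4. The IP libraries lay below the input libraries by a narrow margin. The log2 fold change of -0.16 (SE 0.11) did not pass (edgeR adjusted p = 0.266). With library sizes alone it was -0.42 and passed (edgeR adjusted p = 0.00419), in a scaling that moved the median of all genes by -0.25. Of 5 other genes of the family, Slc35f6 rose by 0.54 and none fell, and the more abundant Slc35f1 stood at -0.13 (edgeR adjusted p = 0.290). No gene of these 5 rose without IP 4, without input 2 or with library sizes alone, where 2 fell.

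Per kilobase of exon, Nr4a2 was the most abundant of the 8 markers, at 78.2 ± 3.96 CPM per kb in IP and 32.5 ± 2.99 CPM per kb in input (SD, n = 2 each). After it came Slc35f3 (18.2 in IP and 20.3 in input), Ntng2 (14.95 in IP and 7.81 in input), Synpr (6.95 in IP and 5.49 in input), Gnb4 (4.86 in IP and 3.06 in input), Osr1 (3.30 in IP and 2.52 in input), Car12 (1.44 in IP and 1.10 in input) and Car3 (0.469 in IP and 0.235 in input), all as mean CPM per kb. The order was the same in both groups, and neighbours in it did not overlap within either group. The closest pair in IP was Slc35f3, whose lower library stood at 17.8 CPM per kb, and Ntng2, whose higher library stood at 17.6. Lengths are of all annotated exons joined, from 2.07 kb for Osr1 to 12.7 kb for Gnb4, which lowers the level given for a gene whose longest exons are in few of its transcripts. RefSeq lists a further start of Slc35f3 upstream of the GENCODE gene, so its length may be understated.

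**Figure D2:**
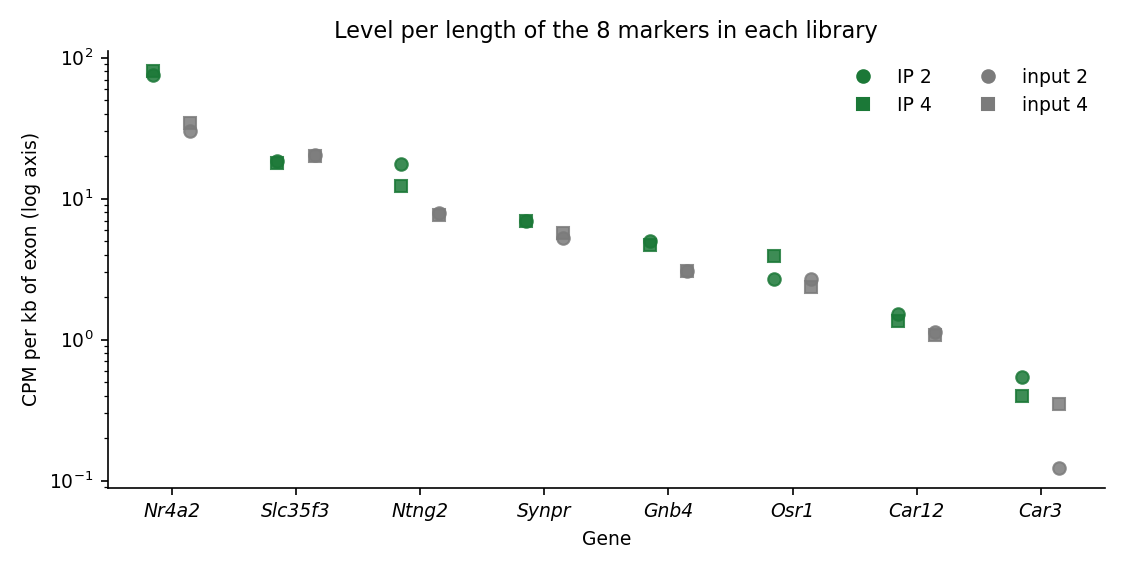
Level of the 8 markers per kilobase of exon (vertical log axis, CPM per kb) in each library, with IP in green to the left of input in grey. Nr4a2 stands at 75.5 and 81.0 in IP and Car3 at 0.542 and 0.396, and Slc35f3 is the only marker with both IP points below both input points.

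Other genes used as markers of the same cells moved in both directions. Of 10 such genes tested, 5 rose and 2 fell, with a median log2 fold change of 0.29. That median was 0.44 without IP 2, 0.16 without input 2, 0.50 without input 4 and 0.65 with the stricter filter on low counts. Nnat, the neuronatin gene, rose by 1.05 (SE 0.10), with 291 ± 35.2 CPM in IP, against 141 ± 9.82 CPM in input (mean ± SD, n = 2 each). Oprk1, the kappa opioid receptor gene, rose by 0.91 (SE 0.20), Penk, the proenkephalin gene, by 0.78 (SE 0.11), Sulf1, a heparan sulfate sulfatase gene, by 0.76 and Lxn, the gene of the peptidase inhibitor latexin, by 0.65. Besides Gng2, Fam20a fell, by 0.53 (edgeR adjusted p = 0.0404). The count that fell was 1 by DESeq2, with no filter on low counts, and without IP 2, input 2 or input 4. Fst, Col18a1 and Col27a1 were low, with means of 1.76, 0.367 and 0.861 CPM in IP, and did not pass. Oprk1 and Penk are also expressed by other neurons of the forebrain, as are most of these genes.

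Markers of other cortical layers were set beside the 8 markers. Of 11 layer 6 corticothalamic and 6b markers, 3 rose and 3 fell, with a median of 0.04. Ntsr1, the neurotensin receptor gene of corticothalamic neurons, rose by 2.18 (SE 0.20), with 24.0 ± 7.41 CPM in IP, against 5.27 ± 0.136 CPM in input (mean ± SD, n = 2 each), a larger value than that of any of the 8 markers, and Hs3st4 fell by 1.20. Of 8 layer 5 markers, 4 rose and 1 fell, with a median of 0.25: Fezf2, a transcription factor of layer 5, rose by 0.56 and Bcl11b fell by 0.94. Of 9 markers of layers 2/3 and 4, 1 rose and 3 fell, with a median of 0.04, and Rorb, a nuclear receptor of layer 4, fell by 0.96. The gene that rose was Scnn1a, a sodium channel subunit gene and layer 4 marker, by 1.20 (SE 0.21, edgeR adjusted p = 0.000106). Without IP 2, or without input 4, 2 of the 9 rose. With library sizes alone the medians of these 3 lists were -0.22, -0.01 and -0.22, and that of the other layer 6 intratelencephalic and claustrum genes 0.03. In that scaling the median of all genes tested was -0.29. The lists were not tested against each other, and the genes differ in abundance.

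Genes of neurons in general also rose, some of them by as much as Nr4a2. Of 8 pan-neuronal genes, 7 rose and none fell, with a median of 1.38, and Snap25 rose by 1.29 (SE 0.07). Of 8 glutamatergic genes, 7 rose and none fell, with a median of 0.41, and Neurod6, a transcription factor of cortical glutamatergic neurons, rose by 1.42 (SE 0.10). Beside them, Nr4a2 at 1.27 lay near the pan-neuronal median, Gnb4 at 0.67 and Synpr at 0.34 lay within the range of the glutamatergic genes, and Ntng2 at 0.94 did so too. Of 9 striatal projection neuron markers, 8 fell and none rose, with a median of -0.64, and Drd2 fell by 1.24.

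**Figure D3:**
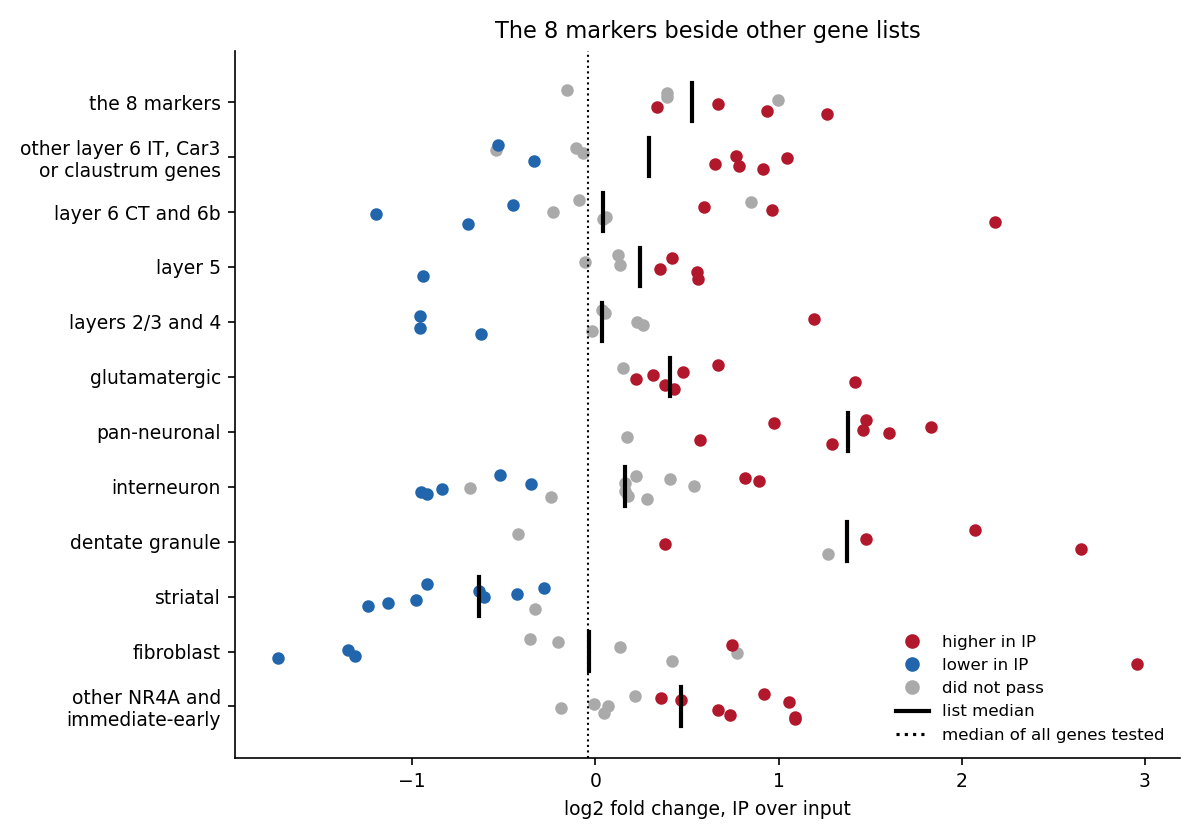
Log2 fold change of IP over input (horizontal axis) for each gene tested of the 8 markers and of 11 other lists (rows), with genes that rose in red, genes that fell in blue and genes that did not pass in grey. Short vertical lines are list medians, from -0.64 for striatal genes to 1.38 for both pan-neuronal and dentate granule genes. The dentate genes Dsp (2.65) and Tdo2 (2.07) averaged only 0.868 and 1.10 CPM in IP, and the more abundant Pdzd2 and Calb1 stood at 1.48 and 0.38. The dotted line is the median of all genes tested (-0.04). The 8 markers range from -0.16 to 1.27 and lie inside the range of the layer 6 corticothalamic and 6b genes.

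**Figure D4:**
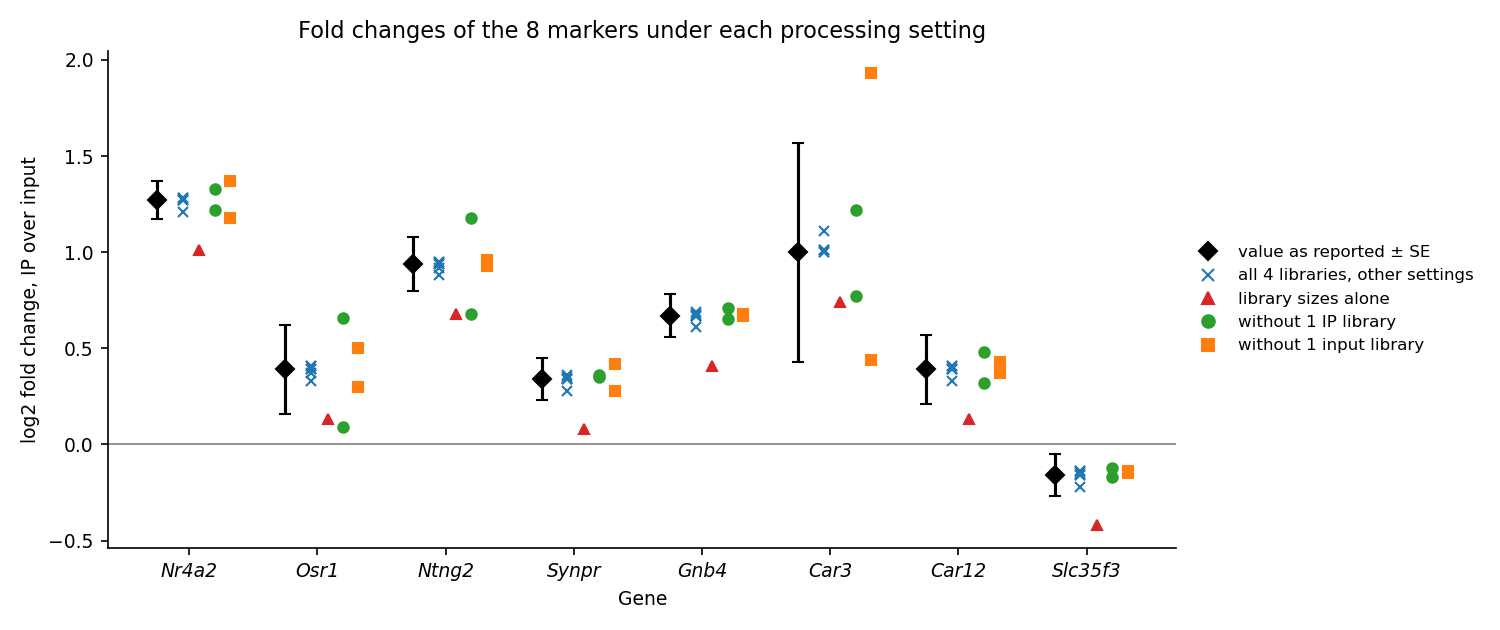
Log2 fold change of IP over input for each marker (vertical axis) as reported (black diamonds ± SE) and under other settings (coloured symbols), including library sizes alone and leaving out 1 library. Nr4a2 stays between 1.01 and 1.37, whereas Car3 ranges from 0.44 to 1.93 and Osr1 from 0.09 to 0.66.

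Some genes had a profile over the 4 libraries close to that of a marker. Among 12417 genes with a gene symbol and a mean of at least 1 CPM, the smallest root mean square difference of mean-centred log2 CPM over 4 libraries was taken. For Nr4a2 that gene was Utp6, a gene of ribosome biogenesis (difference 0.0209), with 99 genes within 0.1. For Ntng2 it was Tmem74 (0.0465), for Synpr Lrrc14 (0.00895) and for Gnb4 Syt11 (0.00756). For Car12 it was Ppp4c (0.00519), for Osr1 Psme2 (0.0281) and for Car3 Kirrel2 (0.0368). With 4 libraries in 2 groups such likeness is common: 968 genes lay within 0.1 of Gnb4 and 1306 within 0.1 of Synpr, against 1 for Car3.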

How the data were processed

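Ribosome-bound and total RNA of adult mouse cortex were sequenced in 2 IP and 2 input libraries. The deposited values are raw read counts per gene name, 1 file per library. The labels' processing notes name STAR 2.0.0e, HTSeq and the mm10 build, the same assembly as GRCm38. The sources used here do not give the annotation, strand setting or library kit. The 6 lines naming no gene were left out, among them reads without a unique alignment, which were 30.7% to 38.0% of records, so genes with close copies are undercounted.

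The test was the edgeR 4.0.16 quasi-likelihood test (R 4.3.3) with TMM factors and filterByExpr (minimum count 10, total 15), of IP over input without a replicate block, two-sided, adjusted by Benjamini-Hochberg over all 16600 genes tested, with a threshold of 0.05. Standard errors are the log2 fold change over the root of the F statistic. The method was tested on simulated data. Replicates differed beyond sampling noise (chi-square per degree of freedom 22.5 for IP and 15.2 for input). Alternatives were DESeq2 1.42.0, other scalings, filters, a replicate block, fits without each library in turn, and a fit without Rn45s. The ratios by number used log2(CPM + 0.5). Coordinates, exon lengths and overlaps come from GENCODE M21. Besides Ntng2, exons of Gng2, Gnb2, Gnb5, Syp, Nnat, Lxn, Penk, Fst, Dusp1, Hs3st4, Igf2, Dsp, Slc35f6, Mobp, Cnp, Slc1a2, Csf1r and P2ry12 overlap other genes, so their counts are uncertain.

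The members and lists were chosen with earlier results of these data known. Named from each list were up to 3 genes past the threshold with the largest fold change, each averaging at least 5 CPM, plus its most abundant gene for cell classes. Dusp1, Ntng1, Lrrc4b, Sulf1, Lxn, Fam20a, Fst, Col18a1, Col27a1, Col1a1, Lum, C1ql2 and Dsp were named after their values were seen. Smim32, also listed, was not analysed here. The gene closest in profile to Slc35f3 is not reported here.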

Additional observations from a re-analysis of the deposited data

How the results depend on the processing

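Over 11 alternative settings the 8 markers gave 87 values, as Car3 could not pass the stricter filter. None changed direction, 83 stayed on their side of the threshold, 2 lost the call and 2 gained it. Synpr lost it with library sizes alone (0.08) and without input 2 (0.28), Slc35f3 gained it downward with library sizes alone (-0.42), and Osr1 gained it without IP 2 (0.66). With library sizes alone, genes that rose numbered 2151 instead of 3886 and genes that fell 5910 instead of 3719, 3 markers rose and 1 fell, and the overall median shifted by -0.25. The Slc35f3 value there is to be read against a median of -0.29. Leaving out 1 library gave 3 to 5 markers higher and 0 lower, and 3323 to 3720 genes higher and 2670 to 3421 lower. In such fits the lone library is assumed to vary like the other group.

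With the replicate block, 4314 genes rose and 4037 fell, and 4 markers rose and 0 fell. The block changed no call among the markers. The deviations of libraries with the same number correlated at 0.0481 across 16600 genes, and the labels do not say what a number marks, so the numbers were not taken to pair the libraries. Depth limits Car3, with 16 to 59 counts a library.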

Other observations

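Of the glial and vascular genes, which none of the 8 markers is meant to report, some glial genes also moved. Of 7 astrocyte genes, 3 rose and 2 fell, with Aldoc, a glycolytic enzyme, at 0.81 on the log2 scale and Slc1a2, a glutamate transporter, at -0.61. Of 7 oligodendrocyte genes, 2 rose and 5 fell, with the myelin gene Mobp at -1.61 and Cnp at 0.79. Of 7 microglia genes, 1 rose and 2 fell, with the receptor gene Csf1r at 0.75 and P2ry12 at -0.55. Of 7 endothelial and mural genes, none rose or fell by edgeR (0 also at an unadjusted p under 0.05 and by DESeq2), and Rgs5, the most abundant, averaged 13.3 ± 4.12 CPM in IP, against 13.3 ± 1.85 CPM in input (mean ± SD, n = 2 each).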
